A study of Mus musculus with 19 samples.

Results

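Surface receptors that mark the type 2 conventional dendritic cell (cDC2) were followed in RNA sequencing of sorted mouse spleen dendritic cells. The set was a fixed list of 10 genes, Sirpa, Cd4, Clec4a4, Clec4a2, Cd209a, Clec12a, Clec7a, Clec10a, Esam and Csf1r, and all 10 were found among the 24421 gene symbols of the count tables. C57BL6 mice of genotypes labelled WT, Xbp1 KO (Xbp1 deficient) and Xbp1-Ire1 KO (deficient in both Xbp1 and Ire1) each gave cDC1 and cDC2, sorted from the spleen in samples of 5000 to 50000 cells. There were 19 libraries in 6 groups of 3, except for cDC2 WT with 4. The sample labels name floxed alleles for some of the WT libraries, but give no Cre driver, sorting gate, age or sex, and no treatment. Whether replicates came from different mice is not stated, and p-values therefore speak only of the scatter among these samples, possibly technical.

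Dendritic cells sample their surroundings through surface receptors and present what they take up to T cells, the cDC2 chiefly to CD4 T cells. The C-type lectins among the receptors bind sugars or other ligands on microbes and dying cells, and pass on either activating signals, through the kinase SYK, or inhibitory ones, through phosphatases. Splenic cDC2 include a NOTCH2-dependent population rich in ESAM, CD4 and CLEC4A4, and an ESAM-low population richer in CLEC12A, CD209A, CLEC10A and CSF1R. IRE1, encoded by Ern1, is an endoplasmic reticulum stress sensor whose RNase splices Xbp1 mRNA so that it encodes an active transcription factor.

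Library totals ran from 10606864 to 16209469 counts. Levels are given as CPM, counts relative to library size, with libraries scaled by the trimmed mean of M values over all 19. The cDC1 receptor gene Xcr1 ran from 912 to 1340 CPM in cDC1 libraries and from 5.46 to 18.3 CPM in cDC2 libraries. Whole-gene levels of Xbp1 in cDC1 were 147 to 240 CPM (WT), 92.9 to 117 (Xbp1 KO) and 312 to 359 (Xbp1-Ire1 KO), and those of Ern1 were 23 to 29.9, 27.8 to 34.3 and 52.3 to 72.6 CPM. In cDC2 those of Xbp1 were 70.3 to 154, 40.8 to 55.7 and 55.9 to 76.0 CPM, and those of Ern1 were 20.1 to 30.7, 25.9 to 30 and 20.6 to 30.2 CPM. Transcripts without the deleted exons, which the labels do not name, are counted too, so these levels do not check the knockout. WT libraries bore 2 kinds of name. Replicates 1 and 2 of each cell type had names with floxed alleles (fl-fl), and the others, replicate 3 in cDC1 and replicates 3 and 4 in cDC2, had names with WT. Replicates stood further apart between than within the names: the mean chi-square per gene was 13.1 between the fl-fl cDC1 libraries and at least 69.1 between either of them and the WT-named one. No label calls the names batches, and values against each are given where they differ. In cDC1 the WT-named value rests on 1 library. By markers of other cells, cDC1 Xbp1 KO replicate 2 and cDC1 Xbp1-Ire1 KO replicate 2 were the cDC1 libraries highest in macrophage markers. In cDC2 those markers were highest in Xbp1 KO replicates 1 and 2, at summed levels of 1720 and 1200 CPM. Pancreatic acinar transcripts summed to 1260 CPM in cDC1 Xbp1 KO replicate 3, against at most 4.93 CPM elsewhere.

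Of the receptors, 9 were mainly cDC2 transcripts, and Clec12a was found in both cell types (51.6 to 90.6 CPM in cDC2). In each genotype the 9 were higher in cDC2 than in cDC1, and Clec12a was higher in cDC1, with no overlap between the libraries of the 2 cell types for any of the 10. The edgeR quasi-likelihood test with Benjamini-Hochberg adjustment (adjusted p under 0.05) called 10 of 10 in WT, where 40.8% of all 12185 tested genes were called, in Xbp1 KO (39.1% of all genes) and in Xbp1-Ire1 KO (42.6%). Of all tested genes, 20.7% were called higher in cDC2 and 20% higher in cDC1 in WT, 20.8% and 18.4% in Xbp1 KO and 22.1% and 20.5% in Xbp1-Ire1 KO. Because the receptors were listed for their known place on cDC2, the 9 are a description and no finding.

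**Figure D1:**
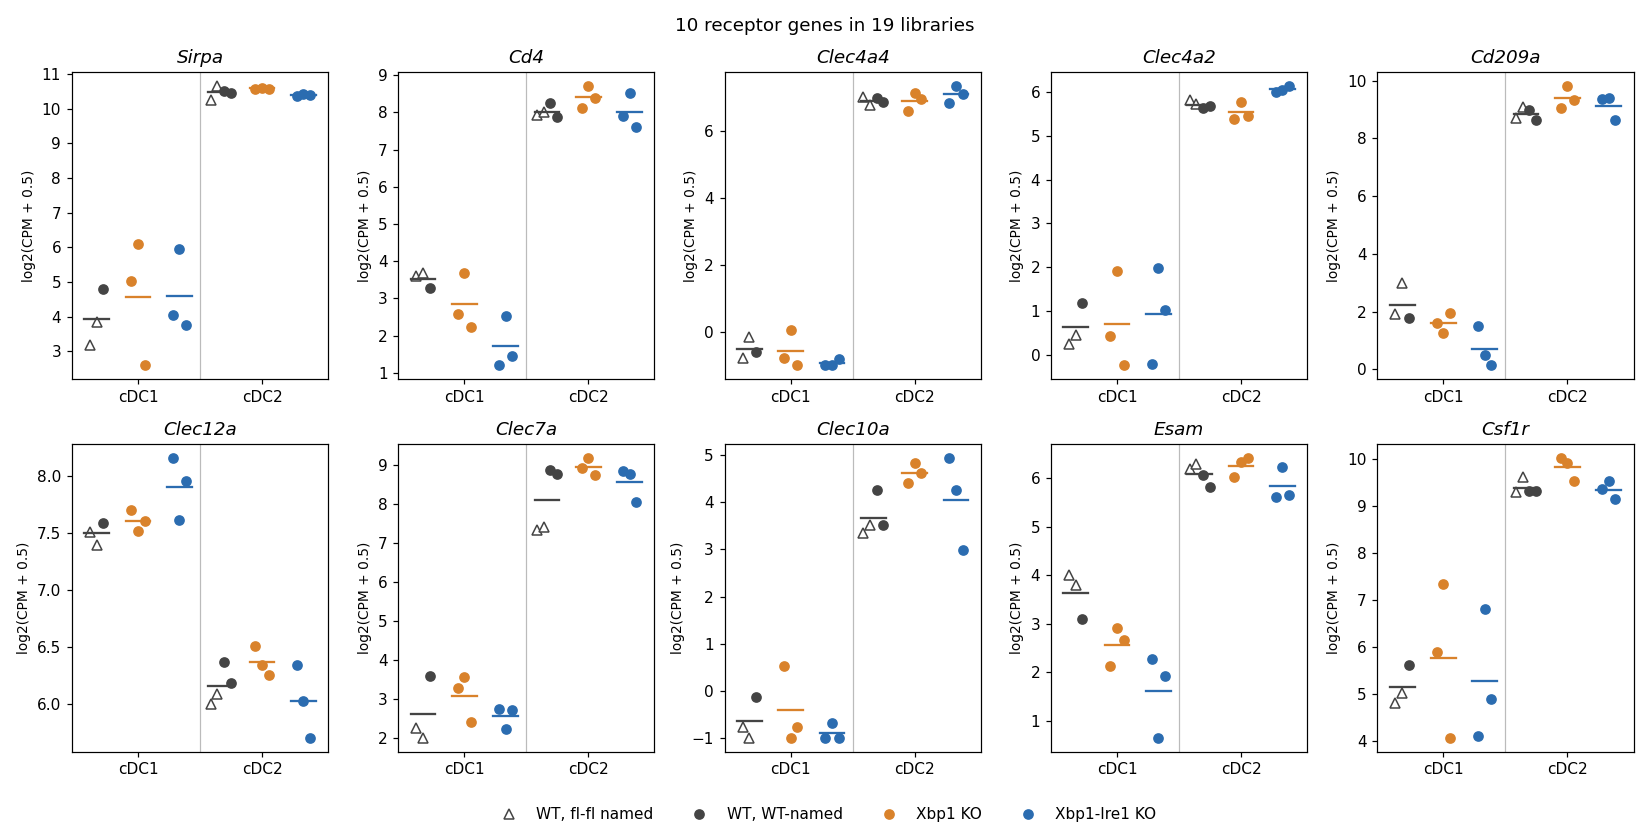
Levels of the 10 receptor transcripts, as log2 of CPM with 0.5 added, in each of the 19 libraries, with cDC1 to the left and cDC2 to the right of each panel. Points are libraries, open triangles are fl-fl WT libraries and lines are group means; Clec12a is the panel in which the cDC1 libraries lie above the cDC2 libraries.

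Sirpa (GRCm38 chromosome 2, 129592835 to 129632228; ENSMUSG00000037902) encodes SIRPα, the receptor for the "do not eat me" signal CD47 and the usual sorting marker of cDC2. It lay in cDC2 at 1220, 1610, 1460 and 1400 CPM (WT), 1520, 1550 and 1520 (Xbp1 KO) and 1320, 1360 and 1340 (Xbp1-Ire1 KO). In cDC1 the values were 8.54, 13.8 and 27.4 CPM (WT), 31.9, 67.7 and 5.57 (Xbp1 KO) and 16.1, 61.1 and 13.1 (Xbp1-Ire1 KO). The 3 cDC2 groups overlapped except that each Xbp1 KO library lay above each Xbp1-Ire1 KO library, and within cDC1 the libraries of one genotype spread more than the genotypes differed. The WT level in cDC1 was 1.17% of that in cDC2, a log2 difference of 6.42 ± 0.70 (SE; adjusted p = 2.56e-07).

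Csf1r (chromosome 18; ENSMUSG00000024621), the receptor for the macrophage growth factor CSF1 and for IL-34, was high in cDC2: 632, 790, 639 and 643 CPM (WT), 1040, 974 and 744 (Xbp1 KO) and 664, 743 and 566 (Xbp1-Ire1 KO). Its cDC1 values were 27.5, 32.0 and 48.4 CPM (WT), 59.0, 162 and 16.2 (Xbp1 KO) and 16.6, 111 and 29.0 (Xbp1-Ire1 KO). The cDC1 level was 5.32% of the cDC2 level in WT, 8.61% in Xbp1 KO and 7.95% in Xbp1-Ire1 KO.

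Cd4 (chromosome 6, 124864692 to 124888221; ENSMUSG00000023274), the MHC class II coreceptor that most mouse splenic cDC2 carry, lay at 242, 259, 307 and 234 CPM in cDC2 WT. The cDC2 Xbp1 KO libraries held 279, 420 and 335 CPM and the cDC2 Xbp1-Ire1 KO libraries 238, 369 and 196. Its cDC1 values were 11.6, 12.4 and 9.15 CPM (WT), 5.52, 12.4 and 4.2 (Xbp1 KO) and 1.80, 5.29 and 2.21 (Xbp1-Ire1 KO). Every cDC1 Xbp1-Ire1 KO library lay below every cDC1 WT library, while the 3 cDC2 groups overlapped. The cDC1 level as a share of the cDC2 level was 4.24% in WT, 2.14% in Xbp1 KO and 1.16% in Xbp1-Ire1 KO.

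Esam (chromosome 9, 37528078 to 37538319; ENSMUSG00000001946), a junctional adhesion molecule that marks the NOTCH2-dependent cDC2, had in WT the highest cDC1 share after Clec12a. In cDC2 it lay at 72.4, 77.7, 66.1 and 56.1 CPM (WT), 64.1, 79.6 and 84.3 (Xbp1 KO) and 48.4, 74.5 and 49.5 (Xbp1-Ire1 KO). In cDC1 it lay at 15.5, 13.4 and 8.10 CPM (WT), 3.90, 6.99 and 5.83 (Xbp1 KO) and 4.32, 1.08 and 3.29 (Xbp1-Ire1 KO). All 6 knockout cDC1 libraries were below all 3 cDC1 WT libraries, and the cDC2 groups overlapped. The cDC1 level was 18.2% of the cDC2 level in WT, 7.33% in Xbp1 KO and 5.04% in Xbp1-Ire1 KO.

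Clec4a4 (chromosome 6, 122990367 to 123024105; ENSMUSG00000059639) encodes DCIR2, the antigen of the antibody 33D1 and a long-used tag of splenic cDC2. It lay in cDC2 at 129, 109, 128 and 117 CPM (WT), 97.8, 140 and 126 (Xbp1 KO) and 115, 164 and 138 (Xbp1-Ire1 KO). The 3 libraries of each cDC1 group held 8 counts in all in WT, 7 in Xbp1 KO and 1 in Xbp1-Ire1 KO, against 6134, 4933 and 5034 counts in cDC2. From those counts the cDC2 level was 555-fold the cDC1 level in WT (95% counting interval 282 to 1290), 595-fold in Xbp1 KO (289 to 1480) and 5810-fold in Xbp1-Ire1 KO (1040 to 229000), where a single count sets the fold. Replicate 2 held 5 of the 8 cDC1 counts in WT and 6 of the 7 in Xbp1 KO, and without it the fold was 967 (331 to 4690) in WT and 2840 (509 to 112000) in Xbp1 KO. Without the library that held the 1 count in Xbp1-Ire1 KO the fold was at least 1260, against a floor of 3 counts over the remaining cDC1 libraries. These intervals cover counting error only, and not the spread between libraries. The cDC1 signal of Clec4a4 in WT, 0.176% of the cDC2 level, was the lowest share of the 10 receptors.

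Clec4a2 (chromosome 6, 123106428 to 123143999; ENSMUSG00000030148), the inhibitory lectin DCIR, lies near Clec4a4 among close relatives, and how the authors counted reads shared by such copies is not given in the sources used here. It lay in cDC2 at 55.9, 52.8, 49.7 and 51.0 CPM (WT), 41.2, 54.9 and 43.4 (Xbp1 KO) and 63.6, 66.3 and 70.6 (Xbp1-Ire1 KO). The cDC2 Xbp1-Ire1 KO libraries were above all other cDC2 libraries. In cDC1 it lay between 0.343 and 3.43 CPM.

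Cd209a (chromosome 8, 3743397 to 3748984; ENSMUSG00000031494) is the mouse DC-SIGN gene, whose product binds mannose-rich sugars; it too has close relatives beside it. In cDC2 the gene reached 415, 549, 510 and 398 CPM (WT), 532, 904 and 647 (Xbp1 KO) and 656, 670 and 402 (Xbp1-Ire1 KO). In cDC1 it lay at 3.24, 7.43 and 2.92 CPM (WT), 2.55, 1.91 and 3.34 (Xbp1 KO) and 2.34, 0.902 and 0.604 (Xbp1-Ire1 KO). The cDC1 Xbp1-Ire1 KO libraries were all below the cDC1 WT libraries, and the cDC1 share of the cDC2 level was 0.968% in WT, 0.374% in Xbp1 KO and 0.223% in Xbp1-Ire1 KO.

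Clec10a (chromosome 11, 70156197 to 70170834; ENSMUSG00000000318), the galactose-binding lectin MGL1, had the lowest level per kilobase in cDC2. It lay in cDC2 at 9.69, 11, 18.8 and 11 CPM (WT), 20.9, 28.0 and 24 (Xbp1 KO) and 30.2, 18.7 and 7.38 (Xbp1-Ire1 KO). Each cDC2 Xbp1 KO library was above each cDC2 WT library, and the 3 Xbp1-Ire1 KO libraries spanned both groups. The cDC1 groups held 6, 12 and 2 counts in WT, Xbp1 KO and Xbp1-Ire1 KO, for a cDC2 level 77.1-fold (95% counting interval 35.2 to 211), 69.8-fold (39.8 to 135) and 427-fold (118 to 3530) higher. Single cDC1 libraries set these folds too. Replicate 3 held 5 of the 6 counts in WT, replicate 1 held 11 of the 12 in Xbp1 KO and replicate 2 held both in Xbp1-Ire1 KO. Without that library the fold was 308 (55 to 12200) in WT, 551 (98.7 to 21800) in Xbp1 KO and at least 174 in Xbp1-Ire1 KO.

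Clec12a and Clec7a are neighbours on chromosome 6 with opposite cell type preference. Clec12a (129342691 to 129365303; ENSMUSG00000053063) encodes MICL, an inhibitory lectin that recognises uric acid crystals on dying cells, and Clec7a (129461591 to 129472779; ENSMUSG00000079293, annotated as a polymorphic pseudogene in GENCODE M21) encodes dectin-1, the β-glucan receptor that signals through SYK. They are separated by 96.3 kb with 4 genes between them, Clec12b, Clec1b, Clec9a and Clec1a, of which Clec9a, a receptor for dead cells, lay at 237 to 282 CPM in cDC1 WT and at 6.90 to 16.5 in cDC2 WT. Start-site windows from RefSeq (GRCm38.p6), 250 bases before to 50 after the start, were used for 4 of the 10 receptors, and the windows of these neighbours are shown because the pair lies so close and differs in direction. Capitals mark GAGGAA, the core letters of PU.1 sites, on either strand, and TGANTCA, a loose AP-1 pattern that allows any base in the middle. The Clec12a window is chr6:129349994-129350293, plus strand, inside the GENCODE gene span, and the Clec7a window is chr6:129472730-129473029, minus strand.
Clec12a: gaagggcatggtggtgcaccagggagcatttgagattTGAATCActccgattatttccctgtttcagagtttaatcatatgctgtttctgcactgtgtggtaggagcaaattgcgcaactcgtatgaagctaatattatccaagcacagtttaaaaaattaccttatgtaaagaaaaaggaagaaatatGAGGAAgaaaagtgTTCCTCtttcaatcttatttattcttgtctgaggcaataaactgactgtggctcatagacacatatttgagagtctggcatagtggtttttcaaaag
Clec7a: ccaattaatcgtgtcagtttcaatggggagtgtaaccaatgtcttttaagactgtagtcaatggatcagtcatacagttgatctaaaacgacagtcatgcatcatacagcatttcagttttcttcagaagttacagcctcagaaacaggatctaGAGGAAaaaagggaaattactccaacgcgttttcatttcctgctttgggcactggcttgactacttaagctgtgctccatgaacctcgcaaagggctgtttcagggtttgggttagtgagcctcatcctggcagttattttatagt
GAGGAA was found in the Clec12a window from −61 to −56 and, on the opposite strand, from −47 to −42 relative to the start. TGANTCA was matched there from −213 to −207, as TGAATCA. The Clec7a window held GAGGAA from −96 to −91 and no TGANTCA. Over 32851 RefSeq windows of this length, 28.3% held GAGGAA and 7.81% held TGANTCA. The Clec4a2 window also held TGANTCA, as TGACTCA (31 to 37 bases after the start). The XBP1 element TGACGTGG (0.676% of windows) and TGGGAA, the core letters of RBPJ sites (25.6%), were searched on both strands and matched in none of the 4 windows, those of Clec12a, Clec7a, Clec4a2 and Cd209a. Such matches describe letters and not bound sites.

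Clec12a lay in cDC1 at 182, 168 and 192 CPM (WT), 208, 183 and 194 (Xbp1 KO) and 285, 195 and 248 (Xbp1-Ire1 KO). In cDC2 it lay at 63.4, 67.6, 82.3 and 72.2 CPM (WT), 90.6, 80.8 and 75.9 (Xbp1 KO) and 80.7, 64.8 and 51.6 (Xbp1-Ire1 KO). No cDC2 library reached any cDC1 library: the cDC1 mean was 253% of the cDC2 mean in WT, 236% in Xbp1 KO and 370% in Xbp1-Ire1 KO. The log2 difference, cDC2 minus cDC1, was −1.34 ± 0.15 in WT (SE; adjusted p = 2.74e-07), −1.24 ± 0.16 in Xbp1 KO (adjusted p = 2.37e-06) and −1.88 ± 0.16 in Xbp1-Ire1 KO (adjusted p = 9.49e-09).

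Clec7a lay in cDC1 at 4.27, 3.52 and 11.5 CPM (WT), 9.16, 11.3 and 4.8 (Xbp1 KO) and 6.21, 4.15 and 6.04 (Xbp1-Ire1 KO). In cDC2 it lay at 163, 170, 469 and 440 CPM (WT), 493, 582 and 430 (Xbp1 KO) and 462, 439 and 266 (Xbp1-Ire1 KO). The cDC2 WT libraries fell into the 2 names: both fl-fl libraries were near 167 CPM and both WT-named libraries near 454 CPM, a ratio of 2.72. The WT-named cDC1 library was also above both fl-fl ones, by 2.95-fold. Of 9294 genes at 5 CPM or more in cDC2, 108 (1.16%) were at least as far apart between the names as Clec7a.

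**Figure D2:**
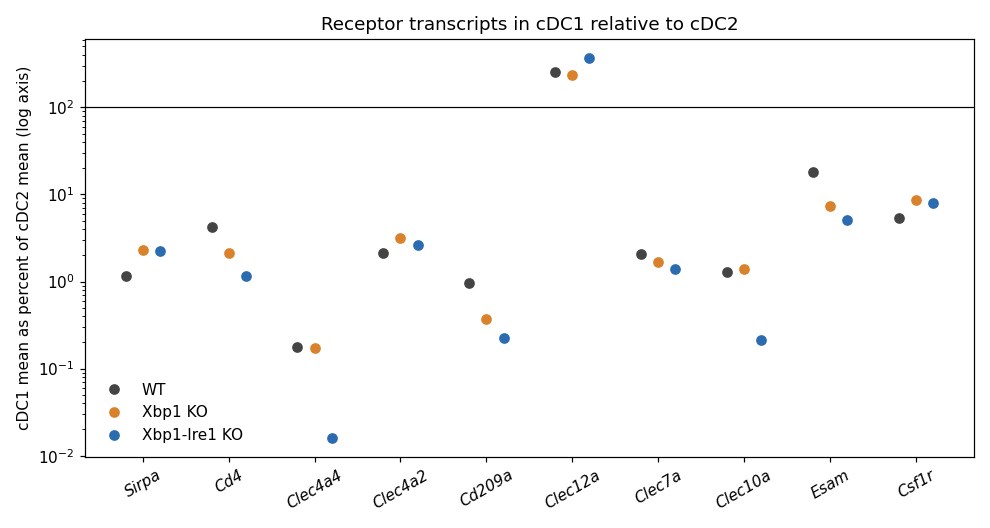
Mean CPM in cDC1 as a percent of the mean CPM in cDC2 for each receptor and genotype, on a log axis, with a line at equality. Clec12a lies above the line in each genotype (236% to 370%), and Esam in WT, at 18.2%, is the highest of the others.

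Per kilobase of exon (CPM divided by the merged exon length in GENCODE M21), the most abundant receptors in cDC2 WT were Cd209a (295.6 ± 46.2, SD, n = 4), Sirpa (289.2 ± 32.5) and Clec4a4 (155.9 ± 12.2). Clec7a (117.7 ± 63.1) and Csf1r (117.1 ± 13.2) followed, then Cd4 (64.6 ± 8.08), Esam (23.7 ± 3.25), Clec4a2 (17.9 ± 0.918), Clec12a (12.9 ± 1.47) and Clec10a (4.36 ± 1.44). Cd209a and Sirpa did not differ beyond their spread, nor did Clec7a and Csf1r. In cDC1 WT the order was led by Clec12a (32.7 ± 2.24, n = 3), then Csf1r (6.23 ± 1.91), Esam (4.31 ± 1.34) and Sirpa (3.37 ± 1.98), the last 3 within each other's spread. Divided by the longest transcript, as another length, Sirpa (356.6) came before Cd209a (315.7) in cDC2 WT.

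Few of the receptors were called between genotypes, and with all WT libraries only in cDC1. That does not show the cDC2 levels to be unchanged. In cDC1 of Xbp1-Ire1 KO, Esam and Cd4 fell, 2 of the 8 receptors tested, where 7.75% of all 11353 genes were called and 4.71% were called lower. Esam changed by −2.11 ± 0.45 on the log2 scale (SE; edgeR adjusted p = 0.0121), from 12.4 ± 3.83 to 2.90 ± 1.65 CPM (SD, n = 3), and was lower in 3 of 3 libraries. Cd4 changed by −1.81 ± 0.46 (adjusted p = 0.0293), from 11.1 ± 1.70 to 3.10 ± 1.91 CPM, also in 3 of 3. Cd209a (−1.83 ± 0.60, adjusted p = 0.0800) and Clec12a (0.43 ± 0.14, adjusted p = 0.0814) did not pass although their groups did not overlap. Sirpa (0.87), Clec4a2 (0.70), Csf1r (0.55) and Clec7a (−0.23) did not pass either. Clec4a4 and Clec10a were too low in cDC1 to be tested. In bulk samples, fewer cells with a transcript and less RNA per cell cannot be told apart.

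The calls rested on few counts and on single libraries. For Esam the call was lost when cDC1 WT replicate 1 was left out (−1.91, adjusted p = 0.059) and when the WT-named library stood alone for WT (−1.49, adjusted p = 0.2). For Cd4 it was lost on leaving out cDC1 WT replicate 1 (−1.78, adjusted p = 0.0866), cDC1 WT replicate 2 (−1.72, adjusted p = 0.0744), cDC1 Xbp1-Ire1 KO replicate 1 (−1.55, adjusted p = 0.128) or cDC1 Xbp1-Ire1 KO replicate 3 (−1.61, adjusted p = 0.117), and against the WT-named library (−1.53, adjusted p = 0.208). Both stayed negative in each of these fits. DESeq2 called Cd209a (−1.83, adjusted p = 0.0271) and Clec12a (0.44, adjusted p = 0.0347) as well. Against the fl-fl libraries, which equals leaving out cDC1 WT replicate 3, Cd209a (−2.08, adjusted p = 0.0328) and Clec12a (0.47, adjusted p = 0.0410) were also called by edgeR. Cd209a was further called without cDC1 Xbp1-Ire1 KO replicate 1 (−2.57, adjusted p = 0.0485), and Clec12a without cDC1 Xbp1-Ire1 KO replicate 2 (0.56, adjusted p = 0.0242).

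Endothelial cells and platelets also carry Esam, and T cells carry Cd4. The sum of 8 endothelial markers in cDC1 was 19.8, 19.1 and 25.1 CPM (WT), 15.2, 12.6 and 12.4 (Xbp1 KO) and 15, 8.42 and 7.45 (Xbp1-Ire1 KO), so it was lower in the same groups as Esam. The most abundant were Flt1 (11.9 to 17.4 CPM in WT, 4.33 to 8.10 in Xbp1-Ire1 KO) and Plvap (2.90 to 4.92 in WT, 0.662 to 1.89 in Xbp1-Ire1 KO). Not every marker of the list was lower there: the defining Cdh5 lay at 0 to 0.782 CPM in WT and at 0.134 to 1.26 in Xbp1-Ire1 KO, Tek was at 0 in WT and Xbp1 KO and reached 0.63 CPM in Xbp1-Ire1 KO, and Emcn was at 0 in all cDC1 libraries. The 5 platelet markers summed in cDC1 to 5.99 to 11.9 CPM (WT), 4.24 to 9.53 (Xbp1 KO) and 10 to 15.5 (Xbp1-Ire1 KO), and were not lower where Esam fell. Of the 10 T cell markers, 8 were in the tables, and they summed to 9.38 to 10.4 CPM in cDC1 WT and 4.23 to 10.4 in cDC1 Xbp1-Ire1 KO. Cd8b1 was the most abundant in WT (2.51 to 6.57 CPM, 1.41 to 2.17 in Xbp1-Ire1 KO), and the defining Cd3e ran from 1.13 to 1.56 CPM in WT and from 0.268 to 2.61 in Xbp1-Ire1 KO. The 5 plasmacytoid dendritic cell markers summed in cDC1 to 53.3, 53.5 and 60.3 CPM (WT), 53.5, 75.1 and 28.1 (Xbp1 KO) and 35.6, 30.1 and 21.3 (Xbp1-Ire1 KO). The 8 monocyte markers summed in cDC1 to 333 to 359 CPM (WT), 344 to 427 (Xbp1 KO) and 201 to 261 (Xbp1-Ire1 KO). Of these, Cd14 was not lower, at 4.06 to 16.3 CPM in WT and 9.18 to 15.5 in Xbp1-Ire1 KO. The part of the endothelial, T cell, plasmacytoid and monocyte markers in the 2 changes was not tested.

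In cDC1 of Xbp1 KO, edgeR called 0 of the 8 receptors against WT, where 11.2% of all genes were called; 1 had an unadjusted p under 0.05, and DESeq2 and limma on the deposited values also called 0. That 1 was Esam, at −1.16 ± 0.43 (adjusted p = 0.1), which was called without cDC1 WT replicate 3 (−1.38, adjusted p = 0.0326). The others lay at 1.12 ± 0.70 for Csf1r, 1.07 ± 0.72 for Sirpa, −0.81 ± 0.58 for Cd209a, −0.59 ± 0.44 for Cd4, 0.40 ± 0.90 for Clec4a2, 0.38 ± 0.45 for Clec7a and 0.10 ± 0.14 for Clec12a. The 95% half-widths of these log2 differences ran from 0.279 for Clec12a to 1.77 for Clec4a2, so only Clec12a was tightly bounded. Both knockouts were compared with the same WT libraries.

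Between the knockouts in cDC1, edgeR called 0 of 8 receptors, where 12.7% of all genes were called; 2 had an unadjusted p under 0.05 and limma called 0. The 2 were Cd4 (−1.21 ± 0.46, adjusted p = 0.102, Xbp1-Ire1 KO minus Xbp1 KO) and Clec12a (0.33 ± 0.14, adjusted p = 0.141). DESeq2 called Cd4 (−1.24, adjusted p = 0.0474). Without cDC1 Xbp1-Ire1 KO replicate 2, edgeR called both, Cd4 at −1.87 (adjusted p = 0.0299) and Clec12a at 0.45 (adjusted p = 0.0424). Esam lay at −0.95 ± 0.45 (adjusted p = 0.187), with a 95% half-width of 0.886.

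**Figure D3:**
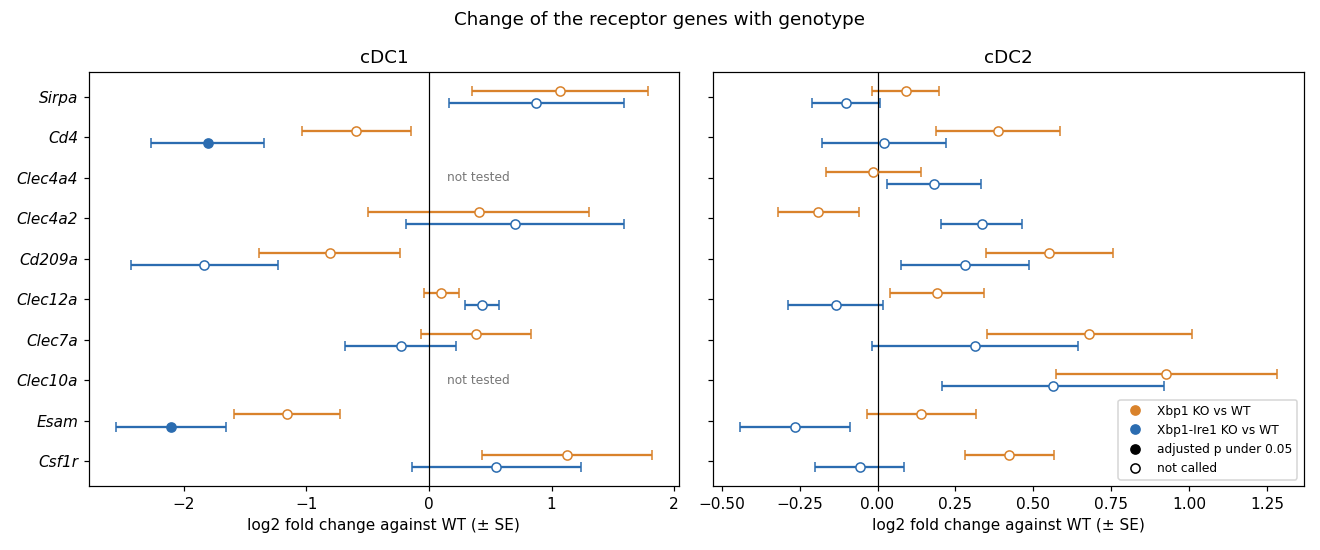
Log2 fold change against WT with its standard error for each receptor in cDC1 (left) and cDC2 (right), for Xbp1 KO and Xbp1-Ire1 KO, on axes of different scale. Filled points have an adjusted p under 0.05 and are Esam and Cd4 in cDC1 of Xbp1-Ire1 KO.

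In cDC2, where the receptors are abundant, edgeR called 0 of 10 in each genotype comparison, and few genes were called at all. The share of all 11646 tested genes called was 0.103% for Xbp1 KO against WT, 0.0258% for Xbp1-Ire1 KO against WT and 0.0343% between the knockouts. Unadjusted p was under 0.05 for 3, 1 and 3 receptors, and DESeq2 and limma on the deposited values called 0 in each. In Xbp1 KO the 3 were Csf1r (0.42 ± 0.14, adjusted p = 0.471), Cd209a (0.55 ± 0.20, adjusted p = 0.474) and Clec10a (0.93 ± 0.35, adjusted p = 0.475). In Xbp1-Ire1 KO it was Clec4a2 (0.33 ± 0.13, adjusted p = 0.648). Between the knockouts they were Clec4a2 (0.52 ± 0.14, adjusted p = 0.474), Csf1r (−0.48 ± 0.15, adjusted p = 0.477) and Esam (−0.40 ± 0.19, adjusted p = 0.606).

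The cDC2 differences from WT lay between −0.19 and 0.93 on the log2 scale in Xbp1 KO and between −0.26 and 0.56 in Xbp1-Ire1 KO. Sirpa was the most tightly bounded, at 0.09 with a 95% half-width of 0.213 in Xbp1 KO and −0.10 with 0.214 in Xbp1-Ire1 KO. For Cd4 the values were 0.39 with 0.388 and 0.02 with 0.391, and for Esam 0.14 with 0.342 and −0.26 with 0.346. Clec10a was the loosest, at 0.93 with 0.694 and 0.56 with 0.699. Half-widths come from the standard error by a normal approximation.

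Clec7a in cDC2 depended on which WT libraries it was set against. With all 4, it lay at 0.68 ± 0.33 in Xbp1 KO (adjusted p = 0.527) and 0.31 ± 0.33 in Xbp1-Ire1 KO (adjusted p = 0.811). Against the 2 fl-fl libraries it was called in both, at 1.56 (adjusted p = 0.000915) and 1.19 (adjusted p = 0.00718), and no other receptor was; there 6.21% and 4.07% of all 11915 genes were called. Against the 2 WT-named libraries it lay at 0.14 (adjusted p = 0.989) and −0.23 (adjusted p = 0.999). A list of 12 immediate early genes, induced by handling or stimulation and drawn up with earlier results of these data known, moved with the same split. The 12 summed to 15300 and 17400 CPM in the fl-fl cDC2 libraries, 26700 and 26100 in the WT-named ones, 27600 to 34000 (Xbp1 KO) and 22600 to 27900 (Xbp1-Ire1 KO), and their part in the Clec7a difference was not tested. In cDC1 they summed to 12100 to 14600 CPM (WT), 21100 to 24200 (Xbp1 KO) and 8460 to 13000 (Xbp1-Ire1 KO).

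The effect of genotype differed between the cell types for 3 receptors. For Xbp1-Ire1 KO against WT, the interaction in a fit of all 19 libraries (the cDC2 effect minus the cDC1 effect) was called for Cd209a (2.21 ± 0.51, SE; edgeR adjusted p = 0.0240), Esam (1.89 ± 0.44, adjusted p = 0.0233) and Cd4 (1.82 ± 0.47, adjusted p = 0.0452). These are 3 of 10 receptors, and 2.23% of all 12185 genes were called and 1.48% with a positive sign. Clec4a4 (2.97 ± 1.17, adjusted p = 0.263) and Clec12a (−0.54 ± 0.22, adjusted p = 0.264) had an unadjusted p under 0.05 only. For Xbp1 KO against WT, edgeR and DESeq2 called 0 of 10, with 2.17% of all genes called and 3 receptors at an unadjusted p under 0.05: Esam (1.31 ± 0.42, adjusted p = 0.138), Cd209a (1.37 ± 0.48, adjusted p = 0.180) and Cd4 (0.99 ± 0.45, adjusted p = 0.358). Without cDC1 WT replicate 3 that of Esam was called (1.54, adjusted p = 0.0434).

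Each of the 3 interaction calls was lost in some fits without 1 library. Esam lost it in 4 of 13, without cDC1 WT replicate 1 (1.69, adjusted p = 0.0764), cDC2 WT replicate 4 (1.76, adjusted p = 0.0549), cDC1 Xbp1-Ire1 KO replicate 2 (1.46, adjusted p = 0.0533) or cDC2 Xbp1-Ire1 KO replicate 2 (1.66, adjusted p = 0.0754). Cd209a lost it in 7 of 13, with adjusted p of 0.0505 to 0.102, and lay at 1.64 without cDC1 WT replicate 2. The other 6 libraries were cDC2 WT replicates 1 and 4 and, in Xbp1-Ire1 KO, cDC1 replicates 2 and 3 and cDC2 replicates 1 and 2. Cd4 lost it in 10 of 13, with adjusted p of 0.0576 to 0.148, when any 1 was left out other than cDC1 WT replicate 3, cDC1 Xbp1-Ire1 KO replicate 2 and cDC2 Xbp1-Ire1 KO replicate 3. All 3 differences stayed positive in all 13 fits, with Esam between 1.46 and 2.26, Cd209a between 1.64 and 2.86 and Cd4 between 1.52 and 2.48. With WT-named libraries alone as WT the calls were lost, at 1.61 for Cd209a (adjusted p = 0.284), 1.43 for Esam (adjusted p = 0.257) and 1.48 for Cd4 (adjusted p = 0.341), and with fl-fl libraries alone that of Cd4 was lost (1.94, adjusted p = 0.0789).

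Sirpa, Csf1r and Clec4a2 in cDC1 moved with markers of red pulp macrophages. The 9 macrophage markers, of which Slc40a1 and Vcam1 were the most abundant, all had counts in every cDC1 group. They summed in cDC1 to 193, 190 and 312 CPM (WT), 331, 750 and 126 (Xbp1 KO) and 131, 567 and 132 (Xbp1-Ire1 KO). The 2 highest libraries, replicate 2 of each knockout, were also the 2 highest for Csf1r (162 and 111 CPM), Sirpa (67.7 and 61.1 CPM) and Clec4a2 (3.27 and 3.43 CPM). Left out together, as an alternative chosen after the values were seen, they changed Sirpa in cDC1 Xbp1-Ire1 KO against WT from 0.87 to −0.17 and Csf1r from 0.55 to −0.65, neither called. Esam (−1.69, adjusted p = 0.0391) and Cd4 (−2.44, adjusted p = 0.00579) were called without them, and so was Clec12a (0.57, adjusted p = 0.0397). Of the interactions, Cd4 was called without them (2.48, adjusted p = 0.00103), and Esam (1.46, adjusted p = 0.0516) and Cd209a (2.01, adjusted p = 0.106) were not. In cDC2 the same markers summed to 457 to 1720 CPM, of which Adgre1 alone made 272 to 450, and their part in the cDC2 levels was not tested.

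**Figure D4:**
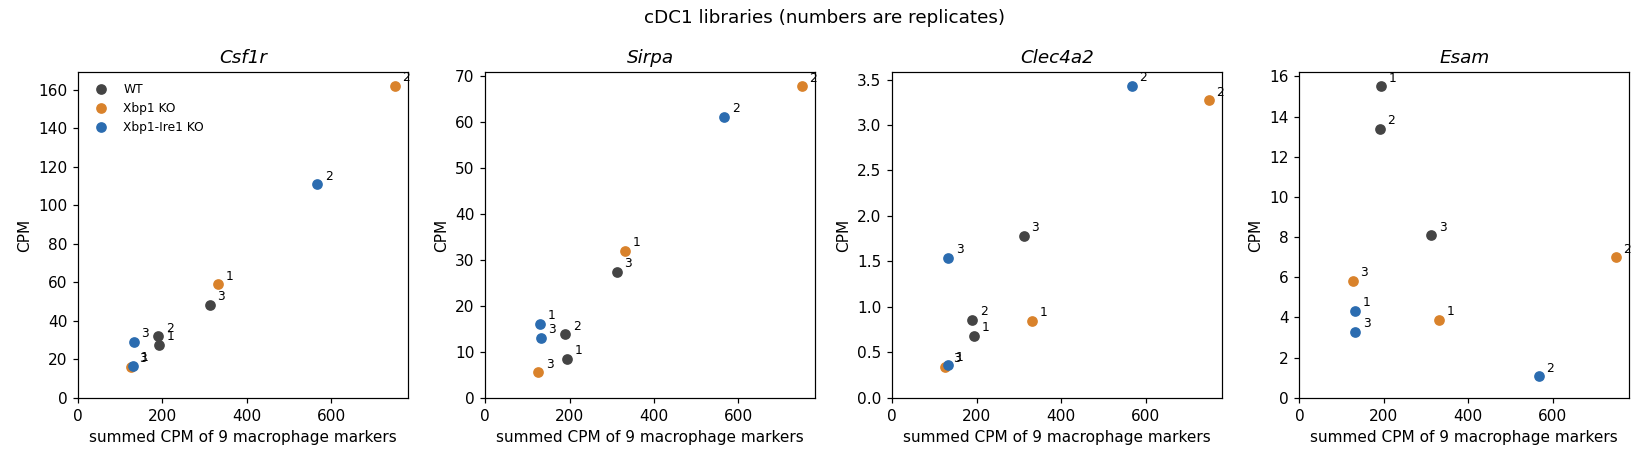
CPM of Csf1r, Sirpa, Clec4a2 and Esam in each of the 9 cDC1 libraries against the summed CPM of 9 red pulp macrophage markers, with the replicate number beside each point. Replicate 2 of each knockout is highest in the markers, Csf1r, Sirpa and Clec4a2, and Esam is highest in the WT libraries.

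By profile over the 19 libraries, the nearest genes to each receptor were ranked (smallest root mean square difference of log2 CPM, each centred on its own mean, among 8506 genes). Clec12a had the closest neighbours, Plbd1 (0.18), Hacd2 (0.21) and Klhl6 (0.21), all higher in cDC1. Csf1r was followed by the adhesion receptor genes Adgre4 (0.26) and Adgre1 (0.40) and by Siglece (0.44), and Sirpa by the NADPH oxidase subunit Cybb (0.33), Tgm2 (0.43) and Rgl1 (0.51). Those near Esam were Stra6l (0.50) and the cytokine receptor genes Il21r (0.50) and Il2rg (0.51), which in cDC1 lay at 65.5 and 77.2 CPM (WT), 20.8 and 36.2 (Xbp1 KO) and 12.1 and 31.8 (Xbp1-Ire1 KO). Clec7a was nearest to the integrin gene Itgam (0.50), Cd4 to St8sia6 (0.58), Clec4a2 to Rgl1 (0.54) and Clec10a to Clec7a itself (0.68). Clec4a4, near 0 in cDC1, and Cd209a had as nearest genes Dscam (0.79) and Scn3a (0.80). These likenesses are over libraries that share 2 widely differing cell types, and are a description.

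The receptor genes Cd4, Clec4a4, Clec4a2, Clec12a and Clec7a lie within 6.48 Mb of chromosome 6 (122990367 to 129472779). Of 78 tested genes in that span, Cd4 and the lectins included, 18 were called higher in cDC2 and 26 higher in cDC1 in WT, where 20.7% and 20% of all genes were. For Xbp1-Ire1 KO against WT in cDC1, 6 of 68 tested genes there were called lower by edgeR, Cd4 among them, where 4.71% of all genes were.

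Between the cell types in WT, related genes on fixed lists were counted. Of 9 tested genes of the SIRPα and CD47 list, 7 were called higher in cDC2 and 1 in cDC1, against 20.7% and 20% of all genes. The paralogs Sirpb1a (9.03 ± 0.33, adjusted p = 1.16e-13) and Sirpb1b (6.14 ± 0.43, adjusted p = 4.75e-10) and the phosphatase gene Ptpn6 (2.16 ± 0.16, adjusted p = 7.57e-10) were among the 7. Of 15 tested lectin signalling genes, 8 were higher in cDC2 and 3 in cDC1, with the adaptor gene Fcer1g (4.22 ± 0.26) and Malt1 (1.72 ± 0.16) among the 8. Of 24 other tested C-type lectin genes, 14 were higher in cDC2 and 4 in cDC1, and those 4 included Clec9a (−4.53 ± 0.21), Ly75 (−3.13 ± 0.17) and Clec4b2 (−8.01 ± 0.50).

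The lists were chosen with earlier results of these data known, and their counts stand beside 7.75% of all genes called in cDC1 Xbp1-Ire1 KO against WT (4.71% lower) and 11.2% in cDC1 Xbp1 KO. Of the ESAM-high list (8 genes, 7 tested in cDC1), edgeR called 2 in cDC1 Xbp1-Ire1 KO, Esam and Cd4 themselves. Of the 5 tested genes of that list outside the receptor set, 0 were called. The list's median, with Esam and Cd4 included, was −0.87 against 0.01 over all genes. In the ESAM-low list, 11 of 14 were tested in cDC1 and none of its 3 called genes was a receptor of the set. Tmem176a fell (−3.64 ± 0.32, adjusted p = 1.35e-05), Tmem176b fell (−2.74 ± 0.27, adjusted p = 4.84e-05) and the lysozyme gene Lyz2 rose (0.62 ± 0.16, adjusted p = 0.0338). Both Tmem176 genes were also lower in cDC1 Xbp1 KO (−2.28 ± 0.29 and −1.33 ± 0.26), where the LPS coreceptor gene Cd14 rose (1.77 ± 0.40, adjusted p = 0.0134).

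Of 18 tested further C-type lectin genes, 3 fell in cDC1 Xbp1-Ire1 KO: langerin, Cd207 (−2.45 ± 0.24, adjusted p = 4.22e-05), Clec2i (−2.24 ± 0.38, adjusted p = 0.00271) and Ly75, which encodes DEC-205 (−0.72 ± 0.18, adjusted p = 0.0277). In cDC1 Xbp1 KO 1 fell, Cd207 (−1.24 ± 0.23, adjusted p = 0.00401). Of 15 genes that signal from lectin receptors, 1 fell in cDC1 Xbp1-Ire1 KO, the kinase gene Src (−2.46 ± 0.41, adjusted p = 0.00253). Of 8 growth factor receptors and ligands related to Csf1r, 3 fell there, Csf2rb2 (−0.90), Csf2rb (−0.44) and Kit (−0.46). In cDC1 Xbp1 KO 1 of the 8 fell, Csf2ra (−0.92). Of 23 dendritic cell regulators, 2 rose in cDC1 Xbp1-Ire1 KO, Cebpb (2.77 ± 0.15, adjusted p = 4.63e-07) and Klf4 (1.99 ± 0.54, adjusted p = 0.0379), and Relb fell (−1.53 ± 0.15, adjusted p = 5e-05). In cDC1 Xbp1 KO 4 regulators rose, Cebpb (1.185 ± 0.15) and Klf4 (1.94 ± 0.54) among them, and 1 fell, Relb (−0.86 ± 0.15). Neutrophils also carry Lyz2 and Cebpb. Of 7 neutrophil markers 6 were in the tables, all with counts in each cDC1 group, and they summed in cDC1 to 0.939, 8.28 and 4.05 CPM (WT), 0, 12.6 and 1.46 (Xbp1 KO) and 16.6, 57.3 and 21.6 (Xbp1-Ire1 KO). The most abundant in Xbp1-Ire1 KO were Ngp (5.3 to 22.7 CPM, 0.0854 to 3.67 in WT) and S100a9 (5.4 to 12.9, 0.512 to 1.8 in WT). Their sum was higher in each Xbp1-Ire1 KO library than in any other cDC1 library, and the part of these markers in the list genes' changes, and in those of the receptors, was not tested. In cDC2, edgeR called 0 of 86 tested list genes other than the receptors in each genotype comparison, with 17, 8 and 8 at an unadjusted p under 0.05 and 0 called by DESeq2 or limma.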

How the data were processed

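Per the file headers, the deposited tables give 1 count per gene symbol and library, 1 table per cell type, and the authors' normalized values on a log2 scale, which equal log2 CPM with 0.5 added to each count plus an offset per library (−0.0755 to 0.125 in cDC1, −0.0301 to 0.0717 in cDC2). Per the submitters' processing notes, the tools included TopHat2 2.1.0, SAMtools 0.1.19, Trimmomatic 0.35, FastQC 0.11.4 and limma 3.42.2, with the build mm10. How reads were counted, with which annotation and strand setting, is not given in the sources used here. Groups follow the labels' cell type and genotype.

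The count test was that of edgeR 4.0.16 (R 4.3.3): filterByExpr (minimum count 10, minimum total 15), TMM scaling, and a quasi-likelihood F test of the 3 genotypes of a cell type, or of all 19 libraries for cell types and interactions, adjusted by Benjamini-Hochberg across every gene tested. A standard error is the size of the log2 fold change over the root of its F value. Replicates differed beyond sampling noise (mean chi-square per gene 8.97 to 72.2). The labels do not pair samples by replicate number. Within a cell type, same-numbered libraries' deviations correlated at −0.128 to 0.218, with 6 of 18 over 0.1. Such values cannot show whether samples were paired. Across the cell types, 6 pairs of libraries share a description name and number; the labels do not say that they share an animal, their deviations correlated at −0.218 to 0.258 with 2 of 6 over 0.1, and the cell type and interaction fits treat them as independent. Genes were matched to GENCODE M21 (GRCm38; 23336 of 24421 symbols). Windows around start sites are RefSeq's.

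The members and lists were chosen with earlier results of these data known. The 10 receptors are named throughout; from each list up to 3 called genes with the smallest adjusted p; per receptor up to 3 nearest profiles, among genes whose log2 CPM averaged 3 or more in cDC2; of marker lists the 2 most abundant genes at most. Cd3e, Cdh5, Tek, Emcn, Adgre1 as a macrophage marker, Cd14 as a monocyte marker and the genes of the gap between Clec12a and Clec7a were named after their values were seen. The alternatives tried were limma 3.58.1 on the deposited log2 values, DESeq2 1.42.0, edgeR with DESeq2 size factors, no filter or a stricter one, a replicate block (the number in the title within a cell type, the description name and number across cell types), the compared groups alone, WT libraries of 1 name, and every library omitted in turn; a lone library of a group is then taken to vary as the other groups do. The pipeline was tested on simulated counts. Python 3.11.15 and matplotlib 3.10.9 drew the plots.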

Additional observations from a re-analysis of the deposited data

Results flagged for a closer look

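For 2 receptors, 1 library lay far from the others of its group. Dixon's criterion was applied to each of the 10 receptors in cDC2 WT, the only group of 4 libraries. Chance alone would give about 1 in 20, and the receptors share the same libraries. Clec10a lay at 18.8 CPM in cDC2 WT replicate 3 against 9.69 to 11 in the others. Csf1r lay at 790 CPM in cDC2 WT replicate 2 against 632 to 643 in the others.

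For Xbp1-Ire1 KO against WT, the effect in cDC2 minus that in cDC1 was called by edgeR for Cd209a (2.21), Cd4 (1.82) and Esam (1.89). The cDC1 effects were −1.83, −1.81 and −2.11 and the cDC2 effects 0.28, 0.02 and −0.26.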

How the results depend on the processing

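All 10 receptors were called between the cell types in each genotype, in the same direction, under every alternative run. Of the values recomputed for single receptors, 1234 kept their direction and side of the threshold, 42 changed sign, 35 lost a call and 20 gained one. For the interactions this tally covers Cd209a, Cd4 and Esam only. Other receptors, uncalled in all fits, changed sign there. In the Xbp1 KO interaction they were Clec10a (−2.06 to 2.62), Clec4a2 (−1.66 to 0.713), Clec4a4 (−0.665 to 2.11), Csf1r (−1.42 to 0.377) and Clec7a (−0.422 to 0.599). In that of Xbp1-Ire1 KO they were Clec4a2 (−1.02 to 0.485), Csf1r (−1.01 to 0.613), Sirpa (−1.65 to 0.0999) and Clec7a (−0.155 to 1.05). The 1234 include all values between the cell types, 150 in WT and 120 in each knockout. For the Xbp1-Ire1 KO interaction 35 values were kept and 28 lost a call. For cDC1 Xbp1-Ire1 KO against WT 102 were kept, 7 lost a call, 9 gained one and 9 changed sign. For a sign change of an uncalled value the cause was not tested.

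For cDC1 Xbp1 KO against WT, 1 receptor was called against the fl-fl libraries, and 0 to 1 when single libraries were left out. For cDC1 Xbp1-Ire1 KO against WT, DESeq2 called 4 and the fl-fl libraries alone gave 4, the WT-named library gave 0, and fits without 1 library gave 0 to 4. Between the knockouts in cDC1, DESeq2 called 1, and fits without 1 library 0 to 2. In cDC2 the fl-fl libraries gave 1 for each knockout. For the interaction of Xbp1 KO, leaving out both macrophage-rich libraries gave 2, and fits without 1 library 0 to 1. For that of Xbp1-Ire1 KO they gave 1 and 0 to 3, and the WT-named libraries gave 0.

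No label pairs the samples by replicate number. With the replicate block by title number, 1 receptor, Cd4, was called between the knockouts in cDC1 (−1.21, adjusted p = 0.0429), Csf1r in cDC1 Xbp1-Ire1 KO against WT was −0.012 and Cd4 in cDC2 Xbp1-Ire1 KO against WT −0.076. With the block by the description name and number that libraries of both cell types share, the Esam interaction of Xbp1-Ire1 KO was lost (2.26, adjusted p = 0.0631), and those of Cd4 and Cd209a and the 10 cell type calls in each genotype were not.

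Other sign changes concerned uncalled values. In cDC1 Xbp1 KO against WT, Clec4a2 was −0.031 by limma, −0.26 against the WT-named library, −0.88 without both macrophage-rich libraries and −0.89 to 0.93 without single libraries, and Clec7a was −0.44 against the WT-named library. In cDC1 Xbp1-Ire1 KO against WT, without both macrophage-rich libraries Sirpa was −0.17, Clec4a2 −0.19 and Csf1r −0.65. Without single libraries Sirpa lay at −0.18 to 1.44, Clec4a2 at −0.20 to 1.21, Clec7a at −0.54 to 0.49 and Csf1r at −0.66 to 0.97, and Clec7a was 0.49 against the fl-fl libraries. Between the knockouts in cDC1, Sirpa was 0.046 by limma and −1.27 to 0.69 without single libraries, Clec4a2 −0.62 to 1.58 and Csf1r −1.79 to 0.48. In cDC2 Xbp1 KO against WT, Clec4a4 was 0.004 by DESeq2, 0.0043 with its size factors, 0.013 without a filter, 0.0015 with a stricter one and −0.11 to 0.12 without single libraries, and Esam was −0.012 against the fl-fl libraries. In cDC2 Xbp1-Ire1 KO against WT, Cd4 was −0.012 by limma, −0.023 against the WT-named libraries and −0.27 to 0.20 without single libraries. There Clec7a was −0.23 and Csf1r 0.031 against the WT-named libraries, and without single libraries Csf1r lay at −0.14 to 0.039 and Clec12a at −0.31 to 0.011. Between the knockouts in cDC2, Clec10a lay at −0.90 to 0.013.

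Counts over all genes moved more. For cDC1 Xbp1 KO against WT the 1270 called became 2926 with the fl-fl libraries, 345 with the WT-named library, 828 from these groups alone, 470 without both macrophage-rich libraries and 471 to 2926 without single ones. For cDC1 Xbp1-Ire1 KO against WT the 880 became 1966, 580, 575, 508 and 430 to 1966, and 1356 by DESeq2. Between the knockouts in cDC1 the 1437 became 2239 from these groups alone, 448 without both macrophage-rich libraries, 709 and 778 without Xbp1-Ire1 KO replicates 1 and 3, and 658 and 648 without Xbp1 KO replicates 1 and 2. In cDC2 the 12 for Xbp1 KO became 47 by DESeq2, 21 without a filter, 740 with fl-fl and 6 with WT-named libraries, the 3 for Xbp1-Ire1 KO became 5 by DESeq2 and 485 with fl-fl libraries, and the 4 between the knockouts became 11 by DESeq2 and 2 to 8 without single libraries. Between cell types in WT the 4971 became 3156 with WT-named libraries. For the interactions 264 and 272 became 432 and 462 by DESeq2, and the first became 173 with WT-named libraries and 418 without cDC1 WT replicate 3, and the second 170 without cDC1 Xbp1-Ire1 KO replicate 1. Counts of 1 to 12 per group in cDC1 limit Clec4a4 and Clec10a there.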
